A study of Mus musculus with 2 samples.

Results

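The nuclear-encoded subunits of the mitochondrial respiratory chain were described in liver of mouse embryos at embryonic day 11.5. Members were all genes annotated as protein-coding by GENCODE whose symbols name a numbered subunit of complex I (Ndufa, Ndufb, Ndufc, Ndufs or Ndufv), a subunit of complex II (Sdha to Sdhd), a complex III gene (Uqcr) or a lettered subunit of complex IV (Cox4 to Cox8). This gave 67 genes of 21474 protein-coding genes and of 43346 mouse genes in all, with 37 in complex I, 4 in complex II, 8 in complex III and 18 in complex IV. Total RNA-seq was available from 2 libraries of 1 group: healthy B6NCrl embryos of both sexes, with 10 ng of RNA for each library. Replicate 1 came from a pool of 109 embryos, and replicate 2 from a pool whose size the labels do not give. With 1 group, levels within this tissue and differences between the pools are described, and no condition is tested. Both libraries are whole tissue, in which fewer cells of a type and less RNA per cell cannot be told apart.

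The respiratory chain passes electrons from NADH and succinate to oxygen and pumps protons across the inner mitochondrial membrane. Complex I takes electrons from NADH and complex II from succinate, complex III hands them to cytochrome c, and complex IV, cytochrome c oxidase, reduces oxygen. Complexes I, III and IV are built from subunits of both genomes, whereas complex II is encoded in the nucleus alone. Several small subunits of complex IV exist as a form made in most tissues and a form known from muscle, lung or testis. Fetal liver at this stage holds hepatoblasts and a large population of maturing red cells, which lose their mitochondria late in differentiation.

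Of 31721267 estimated counts on mouse genes in replicate 1, 1.02% fell to the 67 genes, and of 29750192 in replicate 2, 0.979%. In TPM, a share of all transcripts and added spike-ins that corrects for their length, the members summed to 20207 in replicate 1 and 20291 in replicate 2. Of the TPM on mouse genes alone, they held 2.37% in replicate 1 and 2.28% in replicate 2. The liver label was borne out by its markers: all 8 hepatoblast and all 8 red cell markers were detected, led by Afp at 4698 and 5457 TPM and Trf at 1903 and 2228 TPM, and by Klf1 at 349 and 405 TPM and Ermap at 206 and 207 TPM. Heart muscle markers were also present and stood higher in replicate 1, their 12 genes summing to 325 TPM there and to 142 TPM in replicate 2, with 9 of the 12 detected. Of other cell types, all 8 macrophage, all 8 endothelial, 8 of 10 smooth muscle and pericyte and 5 of 8 neural markers were detected. The highest of these were Lyz2 and C1qb of the macrophage list, Oit3 and Kdr of the endothelial list, Acta2 and Pdgfrb of the smooth muscle and pericyte list, and Gap43 and Snap25 of the neural list, all under 100 TPM. Values below are given for replicate 1 and then replicate 2, and a mean ± SD is over these 2 libraries (n = 2).

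Nearly all subunit genes were read at high level. With detection set at 1 TPM or above in each library, 64 of the 67 members passed, against 56.6% of all protein-coding genes. At 100 TPM or above in each library stood 56 of the 67, against 6.19% of all protein-coding genes. That count took in 33 of 37 genes of complex I, all 4 of complex II, all 8 of complex III and 11 of 18 of complex IV. The 3 undetected genes, Cox7b2, Cox8b and Cox8c, are all restricted forms of complex IV subunits. The members were also short, at a median length of 658 bases against 2062 over all protein-coding genes. At 100 or more counts on average, level fell as length rose (Spearman rho −0.60 over 61 members and −0.46 over 11522 protein-coding genes). Over 64 members, with those of lower counts included, rho was −0.51. A floor on counts leaves out short genes at a higher TPM than long ones, and its part in this relation was not tested. With the same floor of 100 counts, members under 600 bases had a median of 378 and 367 TPM. The 187 protein-coding genes of that length that passed the floor had a median of 310 and 293 TPM. At 1000 bases or more and with this floor, the medians were 191 and 209 TPM for members, against 16.1 and 17.2 TPM for protein-coding genes.

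**Figure D1:**
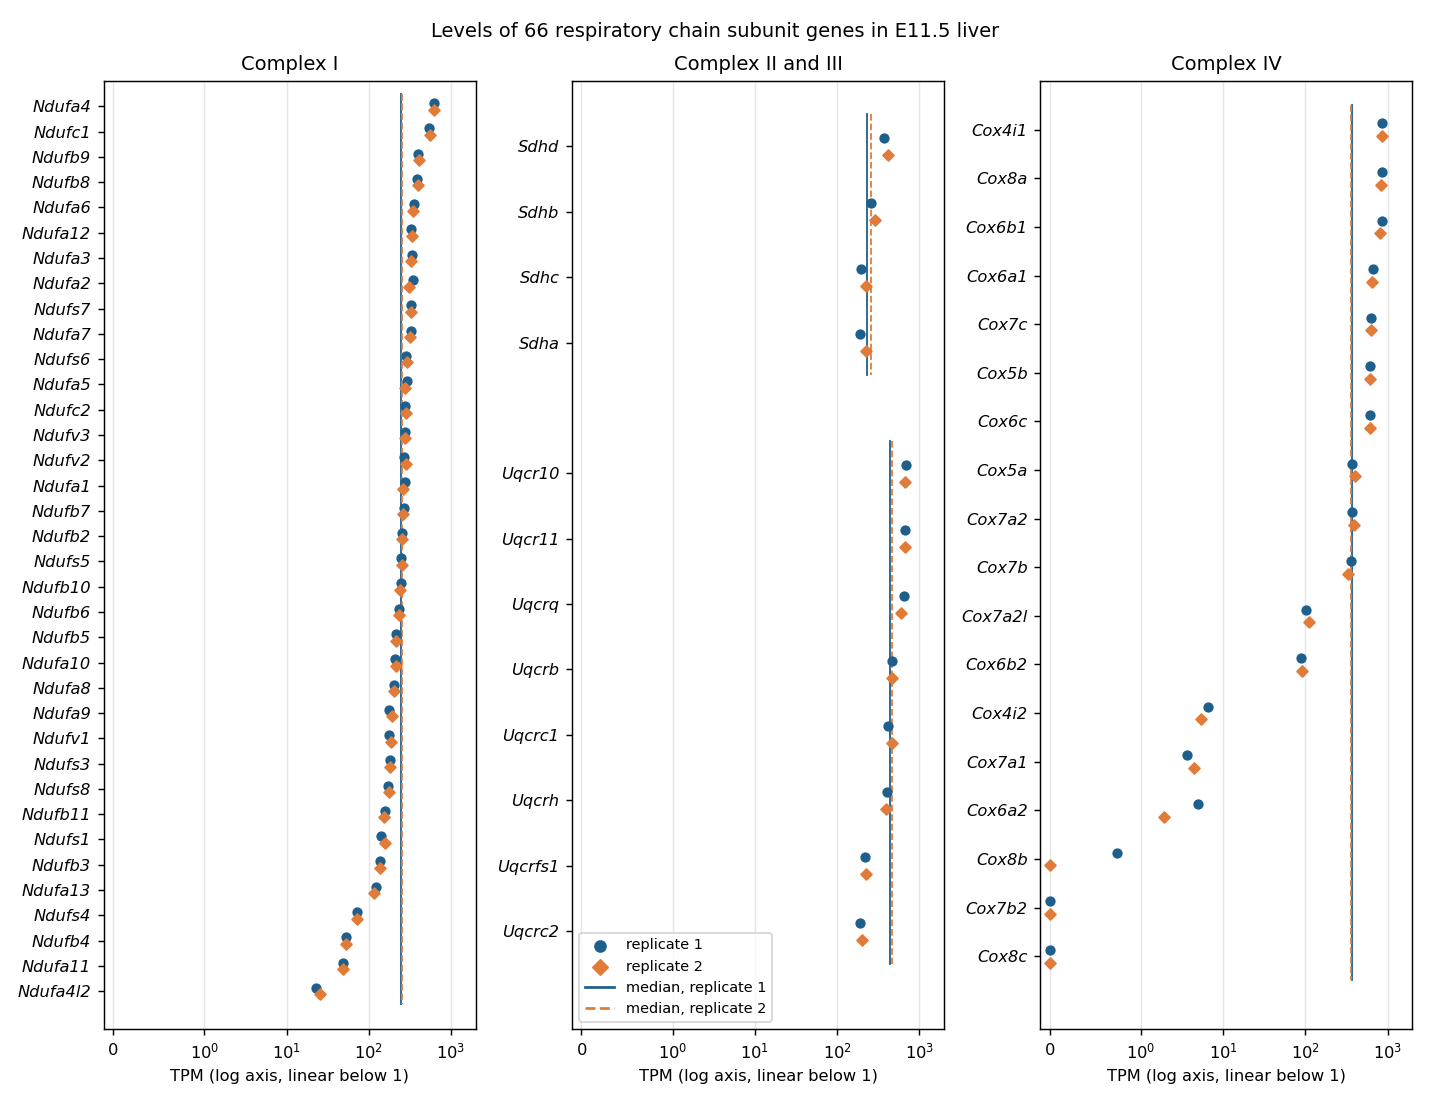
Deposited TPM (horizontal log axis, linear below 1) of 66 of the 67 genes, by complex and sorted by mean level; circles are replicate 1, diamonds replicate 2 and vertical lines the median of each complex in each library over all its genes. Complex II and III genes lie within narrow bands, complex I runs from 621 TPM down to 22.9, and complex IV from 855 TPM down to 0, with its restricted forms at the bottom.

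The complexes differed in level. The median gene of complex IV stood at 366 and 359 TPM (362 ± 4.76), and that of complex III at 443 and 467 TPM (455 ± 16.9). The median of complex II was 228 and 255 TPM (241 ± 19.6), and that of complex I was 247 and 250 TPM (249 ± 2.51). Complexes IV and III stood above complexes II and I by more than the spread between the libraries, while the order of complexes II and I differed between the libraries. Complex IV includes 7 restricted forms, and its 11 other genes had a median of 603 and 604 TPM. Set over the complex I median, that was 2.44-fold in replicate 1 and 2.41-fold in replicate 2. For scale, the median over all protein-coding genes was 2.82 and 2.87 TPM. The complexes also differed in length, with medians of 680 bases in complex I, 1214 in II, 541 in III and 544 in IV. The part of length in their levels was not tested.

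Complex I has nuclear-encoded core subunits, which carry its flavin and iron-sulfur clusters or the quinone site, and a larger set of accessory subunits. The 30 accessory genes had a median of 261 and 255 TPM and the core genes a median of 181 and 188 TPM, so that accessory over core was 1.45-fold in replicate 1 and 1.35-fold in replicate 2. The accessory genes were shorter, at a median length of 643 bases against 1047, and the part of length in this difference was not tested. Among the core, Ndufs7, an iron-sulfur subunit near the quinone site, was highest at 326 and 323 TPM. Ndufv2, which holds an iron-sulfur cluster of the NADH-oxidising module, followed at 266 and 280 TPM. Ndufv1, the subunit that binds NADH and flavin, stood at 176 and 188 TPM. Ndufs3, of the quinone module, stood at 181 and 180 TPM. Ndufs1, the largest iron-sulfur subunit, was the lowest of the core at 141 and 158 TPM. The core thus spanned 2.32-fold in replicate 1 and 2.05-fold in replicate 2, and Ndufv1 and Ndufs3 did not differ beyond their SD (182 ± 8.39 and 180 ± 0.735 TPM).

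Accessory genes of complex I were more spread, with the highest, Ndufa4, 27.0-fold above the lowest, Ndufa4l2, in replicate 1 and 24.7-fold in replicate 2. Without this pair and without Ndufb4 and Ndufa11, whose levels are uncertain, the range was 7.53-fold and 7.80-fold over 26 genes. The 3 highest were Ndufa4 at 617 and 621 TPM, Ndufc1 at 537 and 558 TPM and Ndufb9 at 396 and 405 TPM. Ndufa4 is named for complex I but its product is now placed in complex IV. The 3 lowest were Ndufb4 at 52.1 TPM in both libraries, Ndufa11 at 48.0 and 48.2 TPM, and Ndufa4l2, a relative of Ndufa4 known to respond to low oxygen, at 22.9 and 25.2 TPM. Ndufs4, an accessory subunit whose loss gives a mouse model of Leigh syndrome, was also low at 71.3 and 71.5 TPM. The accessory genes not named here lay between 119 and 348 TPM on average, apart from Ndufb8 at 388 and 397 TPM.

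The levels of some members carry a limit of annotation. Ndufa11 was quantified over a transcript of 2661 bases, while the same transcript has 545 bases in the later GENCODE release M21. The same counts over the shorter length would be 276 TPM in replicate 1 and 277 TPM in replicate 2, beside an accessory median of 261 and 255 TPM. Ndufa3 was quantified over 349 bases, against 515 in M21, and would stand at 202 and 201 TPM at the longer length, against 331 and 326 TPM as deposited. Cox6b1, of complex IV, was quantified over 505 bases, against 618 in M21. Ndufb4 (chr16:37647170-37654453 on GRCm38, minus strand) has a processed pseudogene, Ndufb4c (chr15:73809507-73809896, minus strand), whose bases equal all 390 of its coding sequence, with 0 differences. The first 120 of these bases are shown because a read that lies within them matches both copies:
Ndufb4 and Ndufb4c: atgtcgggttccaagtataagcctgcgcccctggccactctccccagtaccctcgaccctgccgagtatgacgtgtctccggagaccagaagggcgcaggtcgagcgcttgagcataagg

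Of the counts on the 2 copies, 76.3% in replicate 1 and 75.5% in replicate 2 were assigned to Ndufb4c, which stood at 282 and 298 TPM. The sum of both was 334 and 351 TPM, so the level of Ndufb4 on its own is uncertain. Of the 67 members, 12 had a copy at least 95% identical over at least 200 bases elsewhere in the annotated transcripts, 16 copies in all and 15 of them pseudogenes. Ndufb4 was the only one with over 5% of the counts on a copy in either library, and all copies together held 0.720% and 0.738% of the counts on members and copies.

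Complex II, succinate dehydrogenase, links the chain to the citric acid cycle. Sdhd, one of its membrane anchors, was highest at 370 and 413 TPM, and Sdhb, the iron-sulfur subunit, stood at 259 and 286 TPM. The other anchor, Sdhc, stood at 196 and 224 TPM, and Sdha, the flavin subunit that oxidises succinate, at 191 and 225 TPM. All 4 were higher in replicate 2 on the TPM scale, and Sdhc and Sdha did not differ beyond their SD (210 ± 19.4 and 208 ± 24.1 TPM). The highest gene of this complex stood 1.94-fold above the lowest in replicate 1 and 1.85-fold in replicate 2.

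In complex III most small subunits stood above the large ones. The 5 small subunit genes had a median of 646 and 599 TPM, and the 3 genes of the core proteins and the iron-sulfur protein a median of 220 and 226 TPM, a 2.94-fold and 2.65-fold difference. The small subunit genes were shorter, at a median length of 448 bases against 1636, and the part of length in this difference was not tested. Cytochrome c1 (Cyc1), also a large subunit of this complex, falls outside the symbol rule and is not among the 3 genes. It stood at 360 and 383 TPM, above their median, so the difference would be smaller with it included. Uqcr10 stood at 680 and 663 TPM, Uqcr11 at 661 and 672 TPM, and Uqcrq at 646 and 599 TPM. Lower among the small subunits were Uqcrb at 468 and 464 TPM and Uqcrh, the hinge protein that meets cytochrome c, at 404 and 389 TPM. Of the large subunits among the members, the core proteins Uqcrc1 and Uqcrc2 stood at 418 and 469 TPM and at 191 and 200 TPM. Uqcrfs1, the Rieske iron-sulfur protein, stood at 220 and 226 TPM. Uqcrc1 stood above Uqcrh in both libraries, so the levels of small and large subunits overlapped.

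Complex IV held the highest members. Cox4i1, a regulatory subunit needed for assembly, stood at 855 and 848 TPM, Cox8a at 855 and 826 TPM and Cox6b1, on the side facing cytochrome c, at 847 and 813 TPM. As deposited, these 3 did not differ beyond their SD (852 ± 4.80, 840 ± 20.1 and 830 ± 23.9 TPM). Over its M21 length Cox6b1 would stand lower, at 662 and 636 TPM. Cox6a1, Cox7c, Cox5b and Cox6c followed between 601 and 660 TPM. Cox5a stood at 373 and 403 TPM, Cox7a2 at 372 and 387 TPM and Cox7b at 359 and 331 TPM. Cox7a2l, a relative of Cox7a2, was lowest of the 11 genes that are not restricted forms, at 102 and 109 TPM.

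In each of 8 pairs of general and restricted forms, the general form was higher in both libraries. In all 8 the deposited credibility intervals of the paired forms were apart in each library, and the mean log2 ratio was larger than its difference between replicates. As deposited, the smallest difference was 9.06-fold and the largest at least 2773-fold. An exact sign-flip test over 2 libraries cannot give a p below 0.5, so no p-value is given. Coding sequences of the pairs were 56.4% to 69.2% identical over the aligned bases, with gaps left out. Over the whole alignment, gaps included, they were 51.1% to 63.9% identical, and no identical run was longer than 28 bases.

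**Figure D2:**
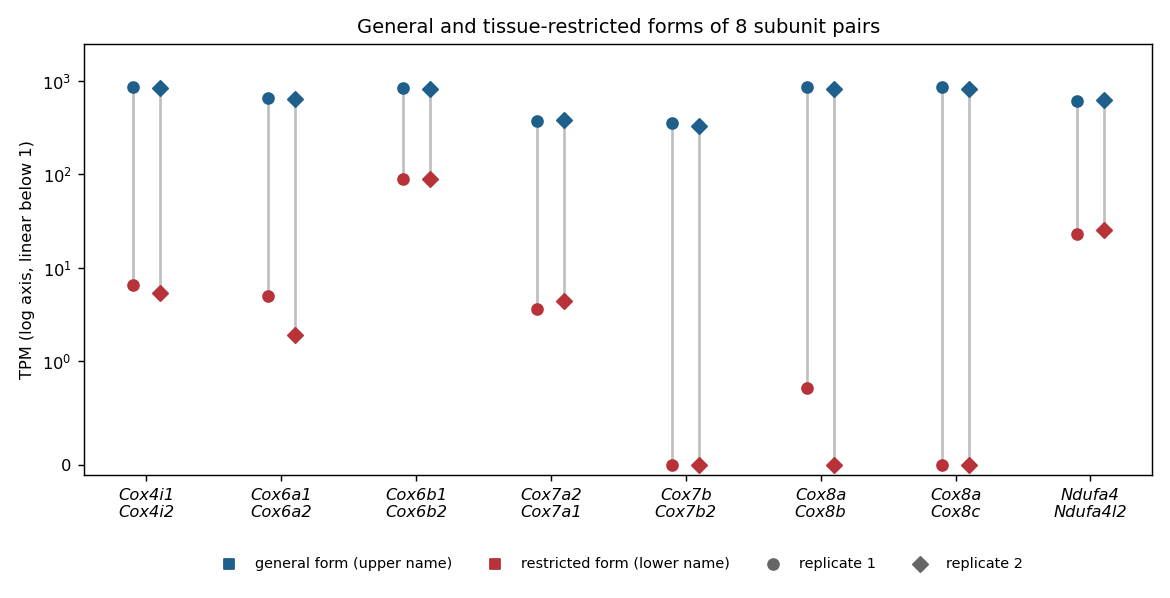
TPM (vertical log axis, linear below 1) of the general form (blue) and the restricted form (red) of each pair, with replicate 1 as circles and replicate 2 as diamonds. The restricted forms run from Cox6b2 near 89 TPM down to Cox7b2 and Cox8c at 0, while every general form lies between 331 and 855 TPM.

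A stretch of 90 coding bases is shown for 3 of the pairs, whose restricted forms were read at different levels, with bases that differ between the paired forms in capitals. The sequences are from GENCODE M21 transcripts on GRCm38. Cox4i1 (chr8:120668222-120674207, plus strand) and Cox4i2 (chr2:152754173-152765037, plus strand) differ at 24 of the 90:
Cox4i1: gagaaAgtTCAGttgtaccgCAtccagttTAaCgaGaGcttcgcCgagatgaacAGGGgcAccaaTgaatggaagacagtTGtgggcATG
Cox4i2: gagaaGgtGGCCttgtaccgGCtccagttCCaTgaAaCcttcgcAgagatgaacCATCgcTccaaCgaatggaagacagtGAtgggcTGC

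Cox6a1 (chr5:115345642-115348981, minus strand) and Cox6a2 (chr7:128205435-128206387, minus strand) differ at 21:
Cox6a1: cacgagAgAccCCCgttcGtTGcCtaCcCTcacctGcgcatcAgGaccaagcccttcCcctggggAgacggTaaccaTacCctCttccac
Cox6a2: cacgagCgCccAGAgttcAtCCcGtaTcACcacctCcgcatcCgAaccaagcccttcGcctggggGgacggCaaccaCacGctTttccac

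Cox6b1 (chr7:30616861-30626151, minus strand) and Cox6b2 (chr7:4751792-4753094, minus strand) differ at 25:
Cox6b1: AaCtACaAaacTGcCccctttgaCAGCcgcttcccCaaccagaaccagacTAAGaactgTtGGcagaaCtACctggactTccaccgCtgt
Cox6b2: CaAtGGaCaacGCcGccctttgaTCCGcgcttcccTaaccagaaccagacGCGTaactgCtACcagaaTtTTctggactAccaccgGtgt

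Cox6b2, a form known from testis, was the one restricted form of complex IV above 10 TPM. Cox6b1 stood at 847 and 813 TPM, against 88.9 and 89.7 TPM for Cox6b2, which had 905 counts in replicate 1 and 823 in replicate 2. Cox6b1 was thus 9.53-fold and 9.06-fold higher, with a mean log2 ratio of 3.21 ± 0.05, and Cox6b2 made up 9.50% and 9.94% of the pair's TPM. Over its M21 length Cox6b1 would stand at 662 and 636 TPM, which would make this difference smaller. Transcripts annotated as coding carried 90.6% and 89.6% of the Cox6b2 level. None of 8 germ cell and testis markers was detected, and their median was 0.025 and 0.05 TPM, with Prm1, Tnp1 and Dppa3 at 0 counts in both libraries. The highest of them were Ddx4 at 0.80 and 0.67 TPM and Ldhc at 0.43 and 0.10 TPM.

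Forms known from muscle were low. Cox6a1 stood at 660 and 637 TPM, against 4.99 and 1.91 TPM for Cox6a2, the form of heart and skeletal muscle, which had 72 counts in replicate 1 and 24 in replicate 2. The difference was 132-fold in replicate 1 and 334-fold in replicate 2, the pair whose size differed most between the libraries among those with counts in both. Cox7a2 stood at 372 and 387 TPM, against 3.65 and 4.36 TPM for Cox7a1, a muscle form also found in brown fat, with 25 and 26 counts. This was a 102-fold and 88.7-fold difference, and the Cox7a1 counts of the libraries lay within counting error of each other.

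Cox8a stood at 855 and 826 TPM, against 0.74 and 0 TPM for Cox8b, its muscle partner in the mouse, which had 5 counts in replicate 1 and 0 in replicate 2. Cox8a was 1155-fold higher than Cox8b in replicate 1, with a 95% counting interval of 497 to 3574, and at least 1632-fold higher in replicate 2. Bounds of this kind rest on 3 counts per library in place of 0, and they cover counting error only. Skeletal muscle markers were low as well, with 7 of 12 detected, a share close to the 56.6% of all protein-coding genes. The median over all 12 was 1.48 and 1.44 TPM, and the highest were Tnnt1 at 21.1 and 20.2 TPM and Mylpf at 20.0 and 22.4 TPM.

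Cox4i1 stood at 855 and 848 TPM, against 6.52 and 5.37 TPM for Cox4i2, a form known from lung and tuned to low oxygen, which had 106 and 76 counts. The difference was 131-fold and 158-fold, with a mean log2 ratio of 7.15 ± 0.19. Ndufa4 stood at 617 and 621 TPM, against 22.9 and 25.2 TPM for Ndufa4l2, with 508 and 488 counts. The difference was 27.0-fold and 24.7-fold, so Ndufa4l2 made up 3.57% and 3.89% of that pair and was, with Cox6b2, the restricted form closest to its partner.

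The testis forms Cox7b2 and Cox8c had 0 counts in both libraries. For Cox7b2 the limit that a count of 0 allows is 0.262 TPM in replicate 1 and 0.301 TPM in replicate 2, so Cox7b, at 359 and 331 TPM, was at least 1368-fold and 1101-fold higher. For Cox8c the limit is 0.308 and 0.353 TPM, so Cox8a was at least 2773-fold and 2339-fold higher. These genes were thus not detectable at this depth.

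Most members were carried by transcripts annotated as coding. The main transcript, the one with the largest deposited percent of the gene, was coding in both libraries for 59 of the 64 detected members, a share close to the 92.0% of all detected protein-coding genes. The median coding share was 99.7% and 99.6%. A share of 90% or more in both libraries was found for 47 of the 64, against 64.9% of all detected protein-coding genes. The main transcript was the same in both for 62, against 93.2%. For 22 of the 64, a coding transcript was the only transcript of the gene, so annotation alone fixed their coding share and main transcript. The shares of all genes were not matched for number of transcripts, and the part of that number was not tested.

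**Figure D3:**
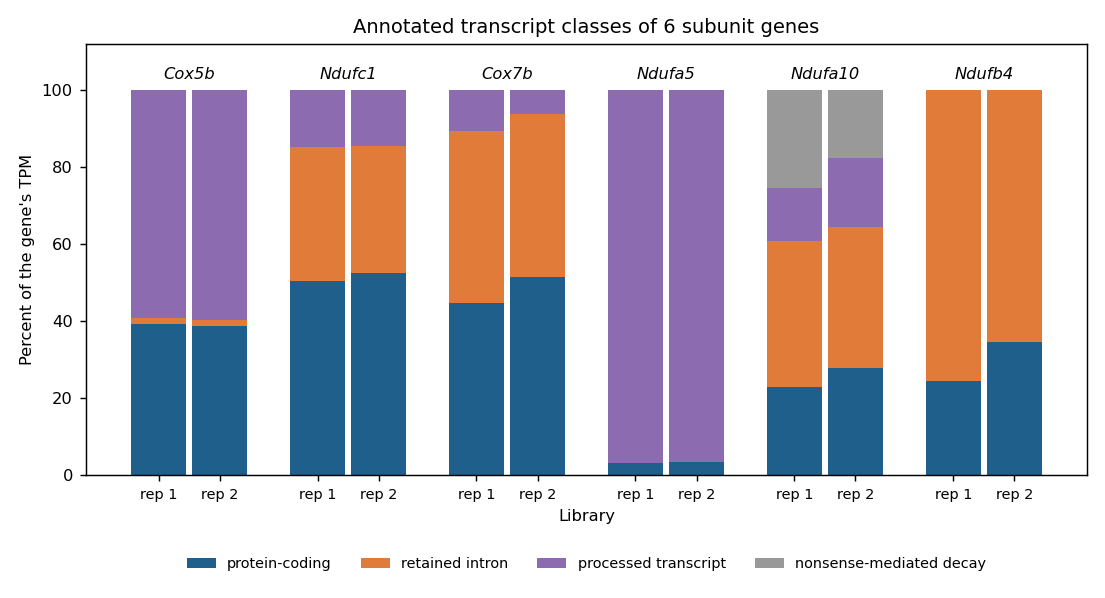
Percent of each gene's TPM assigned to 4 annotated transcript classes, for the 6 detected members whose coding share was under 60% in either library, with replicate 1 to the left of replicate 2 for each gene. Ndufa5 is almost wholly on a processed transcript in both libraries, and Ndufb4 and Cox7b carry large retained-intron shares.

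Ndufa5, an accessory subunit of the arm facing the matrix, was assigned for 96.8% and 96.5% to Ndufa5-204, a processed transcript, which left 9.21 and 9.55 TPM on coding transcripts of a gene total of 291 and 276 TPM. Cox5b, a zinc-binding subunit, was assigned for 59.3% and 59.6% to the processed transcript Cox5b-205. Ndufb4 was assigned for 75.6% and 65.6% to a retained-intron transcript, beside the uncertainty from its copy. Cox7b had a coding share of 44.7% and 51.5%, and Ndufc1 of 50.5% and 52.5%. Ndufa10 was split over 8 transcripts with a coding share of 22.9% and 27.7%. In Cox7b and Ndufa10 the main transcript was a retained intron in replicate 1 and a coding transcript in replicate 2. Their retained-intron shares were nonetheless close between the libraries, at 44.7% and 42.4% in Cox7b and at 38.0% and 36.7% in Ndufa10. Several members share exon bases with an expressed gene on the opposite strand, such as Cox4i1 with Emc8 over 154 bases and Ndufb5 with Mrpl47 over 616 bases. The sources used here do not say whether counting used strand, so reads in those stretches cannot be assigned with certainty.

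The 2 pools gave nearly the same levels for the members. Counts were scaled between the libraries with TMM factors, and 64 members averaged at least 10 counts. Of these, 1 differed by 1.5-fold or more, against 8.16% of the 14418 protein-coding genes with as many counts. The SD of the log2 ratio was 0.20 over the members and 0.08 over the 59 without the restricted forms, against 0.40 over all protein-coding genes. The members also had higher levels than most genes, and the part of this in their narrow spread was not tested. Counting intervals of 95% excluded a ratio of 1 for 40 of the 64, against 40.7% of all protein-coding genes with as many counts. Of the 64, 33 were higher in replicate 1 by this measure, against 17.5% of all such genes, and 7 in replicate 2, against 23.2%. These intervals narrow as counts grow and leave out any other difference between the libraries. The members are also short, at a median length of 658 bases against 2062 over all protein-coding genes, and ratios ran with length, as given below.

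Cox6a2 was the gene that differed, at a log2 ratio of 1.45 for replicate 1 over replicate 2 (95% counting interval 0.79 to 2.20). All 12 heart muscle markers were at least 1.5-fold higher in replicate 1, at a median of 1.24 on the log2 scale, and were led by Myl7 at 119 and 58.9 TPM and Actc1 at 73.5 and 33.0 TPM. Their part in the Cox6a2 difference was not tested. Cox7a1, the other muscle form with counts in both libraries, had a log2 ratio of −0.17 with an interval of −1.02 to 0.68. Next above the rest were Cox4i2 at 0.37 (−0.07 to 0.81) and Ndufa2, an accessory subunit, at 0.26 (0.19 to 0.33). At the other end stood Sdha at −0.18 (−0.21 to −0.14), Ndufs1 at −0.17 (−0.21 to −0.12) and Cox7a1.

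Small differences between the libraries ran with transcript length. Among members averaging at least 100 counts, the 26 under 600 bases had a median log2 ratio of 0.09 and 25 were higher in replicate 1. The 18 of 600 to 1000 bases had a median of 0.06, with 16 higher in replicate 1, and the 17 of 1000 bases or more had a median of −0.03, with 5 higher in replicate 1. Protein-coding genes averaging as many counts ran the same way, with medians of 0.11 over 187 genes, 0.07 over 726 and −0.03 over 10609. Of these, 167 of the 187, 536 of the 726 and 4541 of the 10609 were higher in replicate 1. Across the 61 members the log2 ratio and log2 effective length had a Pearson r of −0.62 and a Spearman rho of −0.56, a description of genes that share the same 2 libraries. With the 3 members of lower counts included, r was −0.24 and rho −0.47 over 64, and over 11522 protein-coding genes of at least 100 counts r was −0.09 and rho −0.13. Complex II, whose 4 genes have a median length of 1214 bases, was lower in replicate 1 in all 4, at a median of −0.07. The 5 small complex III genes, with a median length of 448 bases, were higher in all 5, at a median of 0.12.

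**Figure D4:**
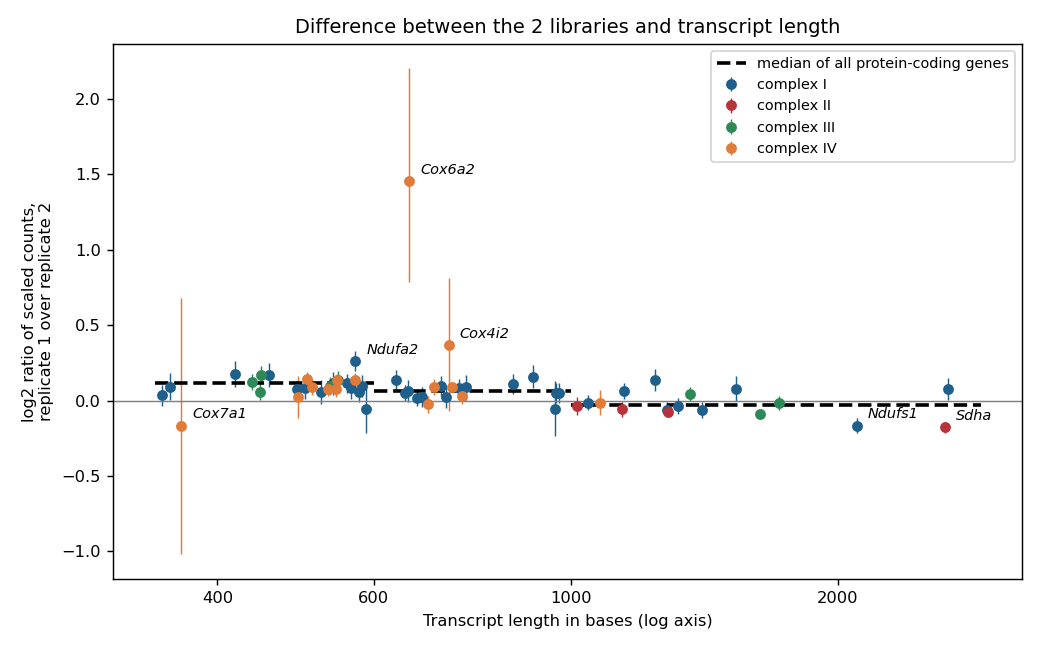
Log2 ratio of TMM-scaled counts, replicate 1 over replicate 2, against transcript length (log axis) for the 64 members averaging at least 10 counts; bars are 95% counting intervals and dashed lines the medians of all protein-coding genes averaging at least 100 counts in 3 length classes. Cox6a2 stands apart at 1.45, and most other members lie near the dashed lines, slightly above 0 when short and slightly below when long.

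The direction of the members' median depended on the scaling. It was 0.08 with TMM, where all genes had −0.01, and −0.01 with TPM, where all genes had −0.09. Relative to all genes, the members stood 0.09 higher in replicate 1 with TMM and 0.08 higher with TPM. Within each length class given above, however, the members' median with TMM was not above that of protein-coding genes with as many counts. With TMM 48 of the 64 lay above the median of all genes, and 52 with TPM.

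Promoters were examined for short motifs of factors known to drive nuclear genes of the chain. RefSeq promoter sequences on GRCm38, from 250 bases before to 50 bases after the start, were matched for 53 of the 67 members, and motifs, none of which contains another, were counted on both strands. The core motif of NRF1, a regulator of respiratory genes, is GCGCANGCG and was found in 13 of the 53 (24.5%), against 7.03% of 27025 genes with a promoter and 9.63% of 17492 protein-coding ones. The ETS core CCGGAAG, which the factor GABP binds, was found in 11 (20.8%), against 9.93% and 12.9%. On the forward strand alone it was in 4 (7.55%), against 7.11% of protein-coding genes, so its higher share among members was seen only with both strands counted. The YY1 core GATGGCG was found in 8 (15.1%), against 4.04% and 4.95%. In Ndufa9, Ndufc1, Ndufs4, Ndufs6 and Ndufs7 its match lay within the 50 bases after the start, and in Ndufa7 before it. This motif holds the letters ATG, and overlap with start codons was not tested. The SP1 box GGGCGG was found in 22 (41.5%), against 38.2% and 49.2%, and CCAAT in 21 (39.6%), against 41.1% and 42.3%.

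By complex, the NRF1 core was found in 8 of 32 promoters of complex I, 2 of 3 of complex II, 2 of 5 of complex III and 1 of 13 of complex IV. Members with the ETS core had a median level of 392 TPM and those without it 259 TPM, while for the NRF1 core the medians were 284 and 270 TPM. The 250 bases before the start of 2 promoters with repeated NRF1 matches are shown, with NRF1 and ETS matches on either strand in capitals. That of Sdha lies at chr13:74350241-74350490 (minus strand) and that of Cox6a1 at chr5:115348959-115349208 (minus strand):
Sdha: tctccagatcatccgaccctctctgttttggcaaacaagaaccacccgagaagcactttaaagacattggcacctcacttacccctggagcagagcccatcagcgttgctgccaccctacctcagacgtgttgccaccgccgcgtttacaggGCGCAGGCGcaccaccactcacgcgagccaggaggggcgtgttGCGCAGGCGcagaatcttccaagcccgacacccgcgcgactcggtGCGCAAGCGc
Cox6a1: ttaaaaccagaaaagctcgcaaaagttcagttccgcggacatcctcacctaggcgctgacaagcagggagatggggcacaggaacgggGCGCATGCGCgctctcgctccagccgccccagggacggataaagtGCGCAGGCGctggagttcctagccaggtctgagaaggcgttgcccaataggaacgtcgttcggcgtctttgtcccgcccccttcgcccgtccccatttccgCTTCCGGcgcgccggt

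Sdha holds 3 NRF1 matches at separate places and no ETS match. In Cox6a1, 2 of the 3 NRF1 matches lie on opposite strands of 1 palindrome, and an ETS match lies nearer the start. A match is a stretch of letters and says nothing of binding, and levels were read in 1 tissue.

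Other genes of the pathway were set beside the members. The 11 mitochondrially encoded subunits reached a median of 840 TPM (replicate 1) and 733 TPM (replicate 2), led by mt-Cytb at 2061 and 2026 TPM and mt-Nd1 at 2069 and 2008 TPM, with mt-Nd4l lowest at 35.7 and 79.4 TPM. Over the nuclear median of the same complex, the median of the 7 mitochondrially encoded genes of complex I was 1.99-fold and 1.51-fold. In complex III this rests on 1 gene, mt-Cytb, which was 4.65-fold and 4.34-fold. In complex IV the median of 3 mitochondrially encoded genes was 4.36-fold and 3.07-fold. Over the 11 complex IV genes that are not restricted forms it was 2.64-fold and 1.83-fold. The 15 matched ATP synthase genes, all detected, had a median of 469 and 480 TPM. Their highest were Atp5b, the catalytic beta subunit, at 1981 and 2245 TPM and Atp5g3, a membrane ring subunit, at 807 and 875 TPM, and the lowest by mean was Atp5l at 151 and 149 TPM. The 3 detected genes that work with the chain outside the symbol rule were the acyl carrier Ndufab1 at 641 and 657 TPM, cytochrome c1 (Cyc1) at 360 and 383 TPM and somatic cytochrome c (Cycs) at 64.4 and 68.2 TPM. The testis cytochrome c, Cyct, had 3 counts in replicate 1 and 0 in replicate 2.

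Genes that assemble the complexes stood far below the genes of the subunits. They were also longer, at median lengths of 1527, 2793, 1433 and 1108 bases for complexes I to IV, against 658 bases for the members. The part of length in this difference was not tested. The 14 complex I assembly genes had a median of 37.6 and 37.5 TPM, led by Ndufaf8 at 77.1 and 69.7 TPM, with Ndufaf4 at 62.9 and 67.4 TPM and Nubpl lowest at 9.47 and 10.7 TPM. The 4 complex II assembly genes had a median of 17.4 and 18.3 TPM, from Sdhaf4 at 52.5 and 60.6 TPM and Sdhaf2 at 23.7 and 25.9 TPM down to Sdhaf3 at 3.86 and 4.65 TPM. The 6 complex III assembly genes had a median of 35.1 and 33.4 TPM, with Uqcc2 standing out at 315 and 311 TPM, then Uqcc1 at 57.6 and 65.6 TPM and Ttc19 and Lyrm7 lowest, both under 10 TPM. Of 20 complex IV assembly genes 19 were detected, and the median over all 20 was 30.2 and 30.1 TPM, led by the copper chaperone Cox17 at 379 and 355 TPM and by Coa3 at 151 and 153 TPM, with Pet117 lowest at 0.10 and 0 TPM. All 10 regulators of mitochondrial biogenesis were detected at a median of 24.5 and 29.0 TPM. Tfam, which packages and transcribes mitochondrial DNA, stood at 77.6 and 83.0 TPM and Pprc1 at 55.4 and 61.9 TPM, while the coactivator Ppargc1a was lowest by mean, at 2.20 and 2.59 TPM.

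**Figure D5:**
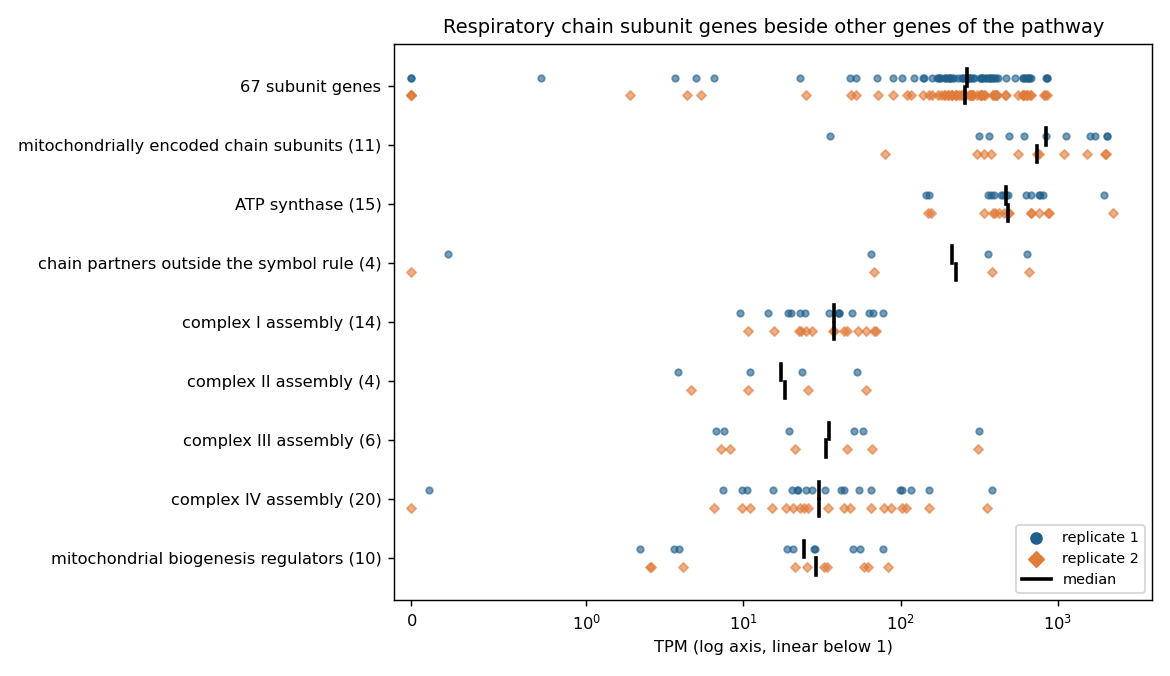
TPM (horizontal log axis, linear below 1) of the 67 subunit genes and of 8 lists of other pathway genes, with the number of genes in parentheses; circles are replicate 1, diamonds replicate 2 and black bars the medians. Subunit, ATP synthase and mitochondrially encoded genes lie mostly above 100 TPM, and assembly genes and regulators mostly below.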

How the data were processed

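Total RNA of 2 pooled liver samples was measured, with 1 table of genes and 1 of transcripts for each. Assembly mm10 was used per the labels, and the deposited text notes state annotation by GENCODE M4. Neither aligner nor quantifier is given in the sources used here. Per gene, the authors deposited estimated counts, which share out reads among genes and need not be whole. Spike-ins count in the deposited TPM and took 14.6% of TPM in replicate 1 and 11.1% in replicate 2. Per the file headers, FPKM, a posterior mean and a credibility interval of TPM stand beside them, and the deposited percent of a gene's TPM was used for each transcript. TPM rests on an effective length 99 bases under the transcript length, so very short transcripts are the least certain.

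Symbols, gene classes and coordinates came from GENCODE M21 on GRCm38, the same assembly, matched on the Ensembl identifier, and 884 of 43346 genes did not match. The symbol rule also met 6 genes of other classes, which were left out. The libraries held 34344230 and 31477397 estimated counts, and they differed beyond sampling noise (chi-square per degree of freedom 10.3 over 16607 genes). TMM factors came from edgeR 4.0.16 and alternative size factors from DESeq2 1.42.0, in R 4.3.3, on estimated counts rounded to whole numbers, with a pseudocount of 0.5 counts for ratios and 0.1 TPM for pairs. Python 3.11.15, pandas 2.3.3, scipy 1.17.1, Biopython 1.88 and BLAST 2.17.0 did the rest, and the ratio step was tested on simulated data. Intervals of ratios between the pools are exact binomial at 95% and cover counting error only. A floor of 3 counts per library stands for a count of 0.

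Members, lists and pairs were chosen with earlier results of these data known. Every member could be named; full values went to the genes of the pairs, most of the core of complex I, all of complexes II and III, the 3 highest and 3 lowest of each complex, undetected members and the 3 largest ratios between the libraries in each direction. The 2 highest genes and the lowest of each other pathway list by mean TPM were named, and the 2 highest of a marker list. Genes named beyond this, such as Ndufs4 and the members with low coding shares, were chosen after their values were seen. Coding sequences of the pairs were compared from the principal transcripts of GENCODE M21 in place of protein sequences, a choice made after the files were seen. The values of 1 member, which counts in all totals and medians, are not reported here. ATP synthase was listed with 16 symbols, of which 15 matched.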

Additional observations from a re-analysis of the deposited data

How the results depend on the processing

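No paired analysis was possible because both libraries belong to 1 group. The libraries alone gave complex medians of 246.84 to 250.39 TPM for complex I, 227.61 to 255.34 for II, 442.87 to 466.80 for III and 358.87 to 365.59 for IV, and all 8 pairs kept their order under every alternative run. Rescaled to mouse genes alone, the medians of complexes I to IV were 285, 277, 522 and 416 TPM, and in FPKM they were 182, 177, 334 and 266. The posterior mean gave 243 TPM for complex I and 354 for IV, and leaving out members under 0.1 TPM gave 388 for IV. Summing Ndufb4 with Ndufb4c, or using the M21 length of Ndufa11, gave 252 TPM for complex I, and the M21 length of Ndufa3 gave 244, all chosen after seeing the data. The median log2 ratio between the libraries was −0.0055 with TPM and 0.08 with TMM, and the cause was not tested. At least 1.5-fold apart were 2 members with no filter, where Cox8b joins Cox6a2, and 0 among genes averaging at least 100 counts, which leaves Cox6a2 out. At a lower fold threshold there were 2, Cox6a2 and Cox4i2. On the forward strand alone the NRF1 core was in 9 promoters (17.0%, against 5.99% of protein-coding genes), YY1 in 7 (13.2%, against 3.16%), ETS in 4 (7.55%, against 7.11%), the SP1 box in 13 (24.5%, against 33.6%) and CCAAT in 10 (18.9%, against 24.5%). Detected members numbered 61 at a TPM of 10. For all protein-coding genes the shares are given only at the main settings, 8.16% for 1.5-fold and 56.6% for detection. The member counts at other settings thus have no share of all genes beside them. Depth limits Cox6a2, Cox7a1 and Cox4i2. In estimated counts, which are not per length, the log2 ratio was 7.85 for Cox7a2 over Cox7a1, against 6.54 in TPM, and 3.56 for Ndufa4 over Ndufa4l2, against 4.68. Pair ratios against a form at 0 depend on the pseudocount and are given as bounds.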
